A study of Mus musculus with 6 samples.

Results

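Type 2 conventional dendritic cells (cDC2) were examined in single-cell RNA-seq of mouse spleen. They were picked by a gate on raw counts of unique molecules (UMIs), which asked for at least 1 UMI of Flt3 or Itgax, at least 3 UMIs of the class II gene H2-Aa and at least 1 UMI of at least 2 of 6 type markers (Cd209a, Dscam, Adam23, Tmem176a, Tmem176b and Tbc1d4). Cells with any UMI of Xcr1, Clec9a, Siglech, Cd3e, Cd3d or Vcam1, or with more than 1 UMI of Cd79a, were left out. The gate held 239 of 31457 kept cells, or 0.760%. The libraries came from wild-type (WT) C57BL/6 mice that were 6 weeks old at the start and then spent 7 weeks on MCDHFD, a diet that the labels use to induce MASH, or on ND. Each diet had 3 libraries, and the labels do not say how many animals stand behind a library. p-values therefore measure the spread between libraries, which may be technical.

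Dendritic cells take up antigen and present it to T cells. The splenic cDC2 subset displays peptides on MHC class II and primes CD4 T cells, while the cDC1 subset specialises in cross-presentation to CD8 T cells. cDC2 arise from bone marrow precursors under the growth factor FLT3L, and part of them still divides in the spleen. Splenic cDC2 are described as a Notch2-dependent ESAM-high group, which carries CD4 and Clec4a4, and an ESAM-low group that shares genes with monocytes.

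By library, the gate held 32, 73 and 24 cDC2 in MCDHFD, against 36, 34 and 40 in ND. Their median depth was 10108, 10373 and 7072 UMIs per cell in MCDHFD, against 13217, 9014 and 11729 in ND. Values run from replicate 1 to 3 within each diet throughout. No cDC2 barcode was shared between libraries. A pair of libraries, MCDHFD replicate 3 and ND replicate 2, differed from the rest in form. They came with short, already filtered barcode lists, their headers name another Cell Ranger version, and at most 101 of their kept barcodes occur in any other list. Both had more Cd74 in cDC2 (34435 CPM in MCDHFD replicate 3 and 24505 CPM in ND replicate 2) than the other 4 libraries (11333 to 13734 CPM), where CPM is a gene count scaled to the UMI total of the summed cDC2 of a library. Form of barcode list was therefore a term in each gene test, and values within each form are given.

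Other classes were gated in the same way for comparison, with 97 cDC1 (at least 2 UMIs of Xcr1 and Clec9a), 66 plasmacytoid dendritic cells (pDC, by Siglech), 326 classical monocytes (by Ly6c2, Ccr2 and any of Chil3, F13a1 and Fn1, without Flt3) and 14269 B cells (by Cd79a, without Flt3 and Itgax).

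The markers differed in how far they bore out the label. Sirpa and Clec4a4 did so against cDC1, and Zbtb46 against classical monocytes and B cells. Sirpa, a receptor for CD47 that marks cDC2, had a UMI in 87.0% of cDC2 against 7.22% of cDC1, and Clec4a4, an inhibitory lectin of ESAM-high cDC2, in 40.2% against 1.03%. Zbtb46, a transcription factor of conventional dendritic cells, had a UMI in 49.4% of cDC2, in 0.920% of classical monocytes and in 0.701% of B cells. Xcr1, Clec9a, Siglech, Cd3d, Cd3e and Vcam1 were at 0 by the gate itself. Irf4, a regulator of cDC2, had a UMI in 22.2% of cDC2 and in 26.01% of B cells, so its share did not set cDC2 apart.

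Some cells sat at the border with monocytes. The 34 cDC2 whose only type markers were Tmem176a and Tmem176b had a UMI of Csf1r, the receptor for the monocyte growth factor CSF1, in 94.1% and of Zbtb46 in 8.82%, against 46.3% and 56.1% of the other 205. Sirpa did not tell them apart, with a UMI in 88.2% of the 34 and in 86.8% of the 205. Just inside the rule, the 45 cDC2 with exactly 2 type markers summed to 440 CPM of Sirpa and 24.4 CPM of Zbtb46. Just outside, the 24 cells with 1 type marker summed to 223 CPM of Sirpa and 19.7 CPM of Zbtb46. With 3 to 6 type markers, Sirpa stood at 271 to 341 CPM and Zbtb46 at 104 to 191 CPM. Itgam, another cDC2 marker, went the other way, with 190 CPM at 1 type marker, 139 CPM at 2 and 49.4 to 136 CPM at 3 to 6. Another 77 cells missed the gate only by H2-Aa, with 16, 44 and 3 in MCDHFD libraries, against 6, 3 and 5 in ND libraries, and 55.8% of them had a UMI of the monocyte gene Ly6c2.

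Genes the gate did not use described the cells further, and since cells were selected by their RNA these levels carry no test. Beside all other kept cells, the highest ratios of CPM belonged to H2-M2, a non-classical class I gene (149.7 against 0.869 CPM), Ppp1r14a, an inhibitor of myosin phosphatase (150.5 against 1.57 CPM), and Frmd5 (202 against 2.54 CPM). Mmp12, a metalloelastase (70.1 against 0.448 CPM), Ccnd1, cyclin D1 (371 against 7.09 CPM), and Sirpb1a, a signal-regulatory protein (410.5 against 14.8 CPM), were also among the 20 highest. H2-M2 had UMIs in 14.2% of cDC2 and Ppp1r14a in 49.8%. Beside cDC1, Dtx1, a Notch pathway gene (102 against 1.48 CPM), and Cd4 (104 against 2.61 CPM) were among the 20 genes with the highest ratios.

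Counts of cDC2 did not separate the diets. They made up 0.484%, 1.11% and 0.680% of kept cells in MCDHFD, against 0.551%, 1.04% and 0.808% in ND. The mean was 0.759 ± 0.321% in MCDHFD and 0.799 ± 0.244% in ND (SD, n = 3 each, two-sided exact permutation p = 0.9). MCDHFD replicate 1, at the low end, had a 95% Wilson interval of 0.343 to 0.683% and replicate 2, at the high end, one of 0.885 to 1.40%, which cover counting error only. The difference was 0.12 percentage points among libraries with unfiltered lists and -0.36 between the 2 with filtered lists. With 3 libraries against 3 the smallest p this test can give is 0.1.

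The ratio of cDC2 to cDC1 was lower in the MCDHFD libraries, but not under every setting. There were 1.68, 2.43 and 2.40 cDC2 per cDC1 in MCDHFD, against 3.27, 2.62 and 2.86 in ND, with no overlap between diets. On the log2 scale the difference was -0.44 (two-sided exact permutation p = 0.1, n = 3 each, the smallest possible). It was -0.60 among unfiltered and -0.12 between filtered lists. Without MCDHFD replicate 1 the difference was -0.26, and it reversed to 0.23 in a narrower cDC2 gate with at most 1 UMI over 10 genes of other lineages, with cDC1 unchanged. In a wider gate that asked for at least 1 type marker in place of 2, the ratios overlapped. They were 1.79, 2.63 and 3.10 in MCDHFD, against 3.45, 2.85 and 3.14 in ND. The cDC1 counts behind these ratios were small, with 10 to 30 cells in MCDHFD libraries and 11 to 14 in ND libraries. When every cell was thinned to 3000 UMIs before gating, the ratios overlapped, at 5.17, 4.33 and 2.25 in MCDHFD, against 7.25, 3.00 and 5.60 in ND.

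The balance of ESAM-high against ESAM-low transcripts was compared next. A cell was put on the ESAM-high side when its UMIs of Esam, Clec4a4, Cd4 and Dtx1 outnumbered those of Clec12a, Cx3cr1, Csf1r, Ccr2, Lyz2 and Csf3r. That side held 44.8%, 40.3% and 47.8% of the assigned cDC2 in MCDHFD, against 55.6%, 51.6% and 55.9% in ND (difference -10.0 percentage points, two-sided exact permutation p = 0.1, n = 3 each). Within list forms the difference was -13.1 percentage points for unfiltered and -3.79 for filtered lists. The split is a range and not a pair of cell types, since 15 MCDHFD and 9 ND cells were tied and 22 and 12 lay 1 UMI from the border. Without Lyz2 in the ESAM-low genes the shares overlapped, at 48.3%, 45.9% and 54.5% in MCDHFD, against 58.3%, 51.6% and 58.8% in ND (difference -6.68 percentage points, two-sided exact permutation p = 0.2). Thinned to 2000 UMIs per cell they overlapped as well, at 47.6%, 40.9% and 40.0% in MCDHFD, against 51.9%, 53.8% and 35.7% in ND.

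Fewer MCDHFD cDC2 carried transcripts of dividing cells. With cycling cells defined as those with a UMI of at least 2 of 11 mitotic genes, such as Mki67, Top2a and Birc5, the share was 3.12%, 5.48% and 8.33% in MCDHFD, against 25%, 14.7% and 10.0% in ND. The diets did not overlap (mean 5.65 ± 2.61% in MCDHFD and 16.6 ± 7.67% in ND, SD, n = 3 each, two-sided exact permutation p = 0.1). The difference was -13.2 percentage points among unfiltered and -6.37 between filtered lists, and it was -10.9 over all libraries and -6.71 without ND replicate 1. Behind these shares stand 1, 4 and 2 cells in MCDHFD and 9, 5 and 4 in ND. Thinned to 2000 UMIs per cell, the shares were 0%, 2.86% and 8.33% in MCDHFD, against 19.4%, 5.88% and 7.89% in ND, and overlapped. Gated B cells, at median depths of 3579 to 5978 UMIs, had cycling shares of 1.01%, 0.764% and 0.915% in MCDHFD, against 2.39%, 2.59% and 1.26% in ND, without overlap. In cDC1 the shares were 0%, 16.7% and 10% in MCDHFD, against 36.4%, 38.5% and 14.3% in ND, and overlapped. The lower share was therefore not particular to cDC2.

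**Figure D1:**
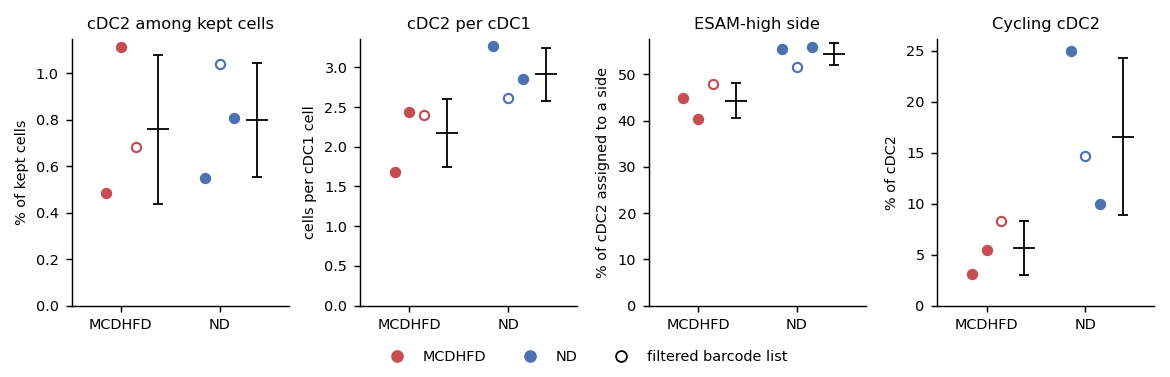
Values per library (points, open for filtered barcode lists) with mean and SD (black) for cDC2 in % of kept cells, cDC2 cells per cDC1 cell, the ESAM-high side in % of assigned cDC2 and cycling cells in % of cDC2. The first overlaps between MCDHFD and ND, and the other 3 are lower in all MCDHFD libraries before thinning.

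Cells with mature markers were rare under both diets. A UMI of at least 2 of Ccr7, Fscn1, Ccl22 and Cacnb3, genes of dendritic cells that migrate to T cell zones, was found in 1, 8 and 3 cDC2 of MCDHFD, and in 3 cDC2 of each ND replicate. In shares this was 3.12%, 10.96% and 12.5% in MCDHFD, against 8.33%, 8.82% and 7.50% in ND, which overlapped.

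Summed cDC2 counts were then compared gene by gene. With list form in the model, 42 genes rose and 28 fell in MCDHFD (edgeR quasi-likelihood, Benjamini-Hochberg adjusted p under 0.05), which is 0.769% and 0.513% of the 5463 genes tested, or 1.28% together. The calls depended on that term, because a model of diet alone called 0 genes, with 300 at unadjusted p under 0.05 (5.49%, of which 2.95% higher and 2.54% lower). DESeq2 with list form called 33 (0.604%, of which 0.348% higher and 0.256% lower), with 297 at unadjusted p under 0.05 (5.44%, of which 2.62% higher and 2.82% lower). With edgeR and list form, 649 genes stood at that level (11.9%). All 70 genes had the same sign with diet alone. Between diets, CPM did not overlap for 375 genes that were higher (6.86%) and 245 that were lower (4.48%). The narrower gate, with at most 1 UMI over 10 genes of other lineages, left 20, 40 and 22 cDC2 in MCDHFD and 7, 25 and 22 in ND, and its sums gave 29 called genes. Calls of named genes that it ended are given beside the gene, and other named genes were too low to be tested there or stayed called. Summed counts cannot tell more cells with a transcript from more RNA per cell, so the number of cells with a UMI is given for the leading genes.

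Among the genes that rose in MCDHFD cDC2, Wfdc17 had the smallest adjusted p. Wfdc17, a small secreted protein of the whey acidic protein family at mm10 chr11:83703991-83706268 on the plus strand, had 542, 544 and 1279 CPM in MCDHFD, against 108, 143 and 137 CPM in ND. Every MCDHFD library stood above every ND library, with UMIs in 67 of 129 MCDHFD cDC2 and in 40 of 110 ND cDC2. Its log2 fold change was 2.42 (SE 0.23, edgeR adjusted p = 2.0e-05), with 2.01 within unfiltered and 3.15 within filtered lists. Spon1, which encodes the extracellular adhesion protein F-spondin (mm10 chr7:113765998-114043370, plus strand), had 136, 113 and 74.6 CPM in MCDHFD, against 23.3, 14.6 and 12.9 CPM in ND. The groups were far apart, and UMIs were in 39 MCDHFD and 14 ND cells (log2 fold change 2.58, SE 0.32, edgeR adjusted p = 0.00055). Pla2g7, the plasma platelet-activating factor acetylhydrolase, had 124, 234 and 179 CPM in MCDHFD, against 33.9, 55.4 and 53.6 CPM in ND. It had a log2 fold change of 1.90 (SE 0.29, edgeR adjusted p = 0.0022). These 3 genes were called with any 1 library left out, but Pla2g7 had a log2 fold change of 1.22 and was not called in the narrower gate (adjusted p = 0.28).

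Apoe, the lipid-carrying apolipoprotein E, had 434, 377 and 478 CPM in MCDHFD, against 146, 108 and 199 CPM in ND (log2 fold change 1.42, SE 0.23, edgeR adjusted p = 0.0026). Plin2, a coat protein of lipid droplets, had 76.1, 65.6 and 54.7 CPM in MCDHFD, against 10.6, 8.75 and 23.6 CPM in ND (log2 fold change 2.06, SE 0.39, edgeR adjusted p = 0.010). Both were higher in all 3 MCDHFD libraries. In the list on lipid uptake, storage and efflux, these 2 of 17 tested members rose, none fell, and the median log2 fold change was 0.36, against -0.0024 over all genes tested. Without the cDC2 marked only by Tmem176a and Tmem176b, Apoe had a log2 fold change of 1.18 and was no longer called (adjusted p = 0.059), and in the narrower gate one of 0.57 (adjusted p = 0.72). Plin2 did not pass the filter on low counts in either. Plin2 was not called without MCDHFD replicate 1 (adjusted p = 0.052) or without ND replicate 1 (0.099). Genes of fatty acid oxidation gave no call among 15 tested, with Slc25a20, the mitochondrial carnitine carrier, at a log2 fold change of 1.55 (adjusted p = 0.12), and 0 of 10 sterol synthesis genes were called, with Hmgcs1, HMG-CoA synthase, at -1.59 (adjusted p = 0.089).

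Fkbp5, a glucocorticoid-induced gene whose product binds the receptor complex (mm10 chr17:28399094-28517527, minus strand), had 105, 271 and 109 CPM in MCDHFD, against 29.6, 37.9 and 25.7 CPM in ND. UMIs were in 75 of 129 MCDHFD and 22 of 110 ND cells (log2 fold change 2.41, SE 0.36, edgeR adjusted p = 0.0022). Ddit4, an inhibitor of mTORC1, had 76.1, 149 and 1184 CPM in MCDHFD, against 84.7, 213 and 34.3 CPM in ND. It overlapped between diets, its call (log2 fold change 1.59, edgeR adjusted p = 0.023) was lost without MCDHFD replicate 2 (0.153), MCDHFD replicate 3 (0.387) or ND replicate 2 (0.355) and by DESeq2 (0.776), and MCDHFD replicate 3 was far above every other library. Of 12 tested genes of the glucocorticoid response list, these 2 rose and none fell, 11 had a positive log2 fold change, and the median was 0.74. Tsc22d3, the glucocorticoid-induced leucine zipper gene, had a log2 fold change of 0.90 (adjusted p = 0.086).

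Ccl6, F13a1 and Hmox1, which monocytes and macrophages also express, were higher, while the list of ESAM-low and monocyte-related genes had 1 of 8 tested members called higher (Clec10a), 4 positive and 4 negative values and a median of 0.02. Ccl6, a CC chemokine, had 263, 256 and 279 CPM in MCDHFD, against 71.97, 149 and 101 CPM in ND (log2 fold change 1.30, SE 0.22, edgeR adjusted p = 0.0037). F13a1, coagulation factor XIII subunit A, had 225, 65.6 and 49.8 CPM in MCDHFD, against 14.8, 5.84 and 34.3 CPM in ND, from 13 MCDHFD and 6 ND cells, and 1 cell of MCDHFD replicate 1 held 49 of its UMIs. It had a log2 fold change of 2.41 (SE 0.48, edgeR adjusted p = 0.015). Hmox1, heme oxygenase 1, had 101, 82.3 and 34.8 CPM in MCDHFD, against 8.47, 23.3 and 17.1 CPM in ND, from 21 MCDHFD and 12 ND cells (log2 fold change 2.15, SE 0.41, edgeR adjusted p = 0.010). Of the 64 Hmox1 UMIs in MCDHFD replicate 2, 1 cell held 34. With 1 library left out, F13a1 missed the threshold without MCDHFD replicates 1 (adjusted p = 0.156) or 3 (0.068) or ND replicates 1 (0.164) or 2 (0.067). Hmox1 missed it without MCDHFD replicates 1 (0.071) or 2 (0.069) or ND replicate 1 (0.10).

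The summed level of 6 classical monocyte markers in cDC2 was 2833, 2455 and 896 CPM in MCDHFD, against 1672, 2159 and 2365 CPM in ND, and so overlapped. No monocyte marker was at 0 in all libraries. When only cDC2 with a type marker besides Tmem176a and Tmem176b were summed, the log2 fold change of F13a1 was 4.64 (adjusted p = 0.00020) and that of Ccl6 1.89 (adjusted p = 0.0020). In the narrower gate, neither was called, with 1.47 (adjusted p = 0.33) for F13a1 and 0.19 (adjusted p = 0.91) for Ccl6. Hmox1 did not pass the filter on low counts in either. The 7 neutrophil markers summed to 932, 1880 and 34.8 CPM in MCDHFD cDC2, against 290, 26.3 and 1418 CPM in ND cDC2, again overlapping, and S100a8 had a UMI in 30.1% of cDC2 and in 23.8% of B cells.

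Fos, a subunit of the AP-1 transcription factor, had 63.4, 65.6 and 29.9 CPM in MCDHFD, against 4.23, 11.7 and 12.9 CPM in ND, from 18 MCDHFD and 10 ND cells, and 1 cell of MCDHFD replicate 2 held 30 of its UMIs (log2 fold change 2.44, edgeR adjusted p = 0.0096). It missed the threshold without MCDHFD replicate 2 (0.161) or ND replicate 1 (0.099), and by DESeq2 (0.062). Fos was the 1 called member of 26 tested NF-kB and immediate early genes, whose median was -0.04. Ifitm1, an interferon-inducible membrane protein, had 165, 457 and 413 CPM in MCDHFD, against 106, 114 and 36.4 CPM in ND (log2 fold change 2.01, SE 0.34, edgeR adjusted p = 0.0040), and missed it without MCDHFD replicate 2 (0.069) and by DESeq2 (0.214). Ifitm genes are related neighbours, and whether reads of other members entered the Ifitm1 count was not tested. Gda, guanine deaminase, had a log2 fold change of 2.10 (adjusted p = 0.012) and Ipcef1, a partner of cytohesin exchange factors, one of 2.25 (adjusted p = 0.0026). Gda missed the threshold without MCDHFD replicates 1 (0.082) or 3 (0.053) or ND replicate 1 (0.10), and Ipcef1 without MCDHFD replicate 2 (0.088) and in the narrower gate (0.052).

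**Figure D2:**
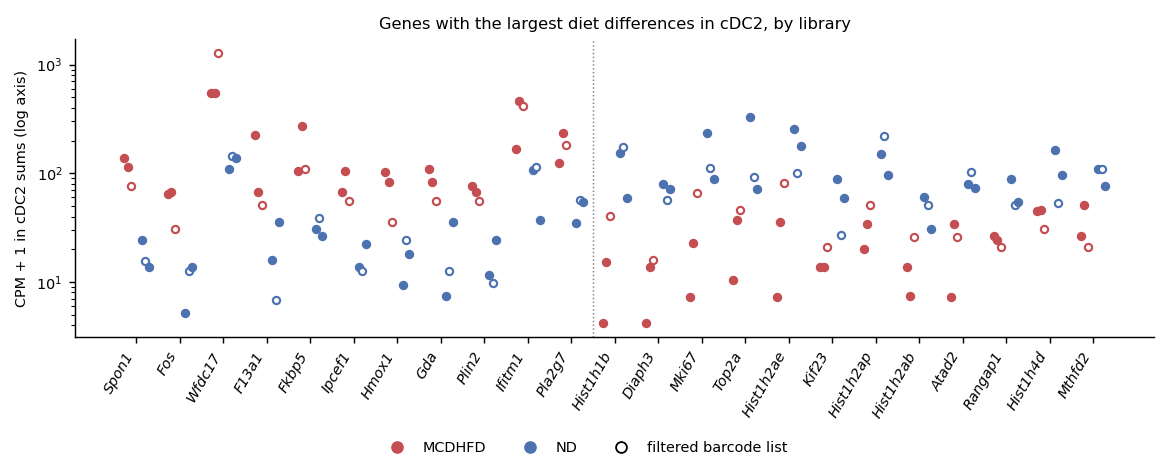
CPM + 1 in summed cDC2 (log axis) for 11 of the 12 genes with the largest positive and the 12 with the largest negative log2 fold changes that met the naming rule, 1 point per library, open for filtered lists. MCDHFD points lie above ND points left of the dotted line and below them right of it, as the rule asked.

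Among genes that fell in MCDHFD cDC2 and met the naming rule, the largest fold changes belonged to Hist1h1b, Diaph3, Mki67 and Top2a, while Ly6i, outside the rule, had a larger one. Mki67, the Ki-67 protein of dividing cells, had 6.34, 21.9 and 64.7 CPM in MCDHFD, against 235, 111 and 87.8 CPM in ND. UMIs were in 8 of 129 MCDHFD and 23 of 110 ND cells (log2 fold change -2.56, SE 0.47, edgeR adjusted p = 0.0087). Top2a, which untangles replicated DNA, had 9.51, 36.0 and 44.8 CPM in MCDHFD, against 328, 90.5 and 70.7 CPM in ND, from 9 and 17 cells (log2 fold change -2.55, SE 0.52, edgeR adjusted p = 0.016). ND replicate 1 was the highest library for both. Kif23, a kinesin of cytokinesis, had 12.7, 12.9 and 19.9 CPM in MCDHFD, against 86.8, 26.3 and 57.8 CPM in ND (log2 fold change -2.17, edgeR adjusted p = 0.016). Mki67 missed the threshold without MCDHFD replicates 1 (0.057) or 2 (0.118) or ND replicate 1 (0.073), Top2a without MCDHFD replicates 1 (0.111) or 2 (0.118) or ND replicate 1 (0.181), and Kif23 without MCDHFD replicates 1 (0.089) or 2 (0.221). DESeq2 did not call any of the 3 (adjusted p = 0.309 for Mki67, 0.535 for Top2a and 0.141 for Kif23).

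Diaph3, a formin that shapes actin in dividing cells, had 3.17, 12.9 and 14.9 CPM in MCDHFD, against 78.3, 55.4 and 70.7 CPM in ND, from 5 MCDHFD and 19 ND cells, 1 of which (ND replicate 3) held 29 UMIs. It was called with any 1 library left out and by DESeq2 (edgeR log2 fold change -2.76, SE 0.42, adjusted p = 0.0022). Hist1h1b, a replication-dependent linker histone, had 3.17, 14.1 and 39.8 CPM in MCDHFD, against 152, 172 and 57.8 CPM in ND (log2 fold change -2.93, SE 0.43, edgeR adjusted p = 0.0022). Hist1h2ae, Hist1h2ap, Hist1h2ab and Hist1h4d were also called, with log2 fold changes of -2.40, -2.17, -2.02 and -1.49, but core histone genes are near-identical copies and single counts are uncertain. Atad2, a chromatin ATPase of proliferating cells, had a log2 fold change of -1.79 (adjusted p = 0.015), and Rangap1, the activator of the Ran GTPase, one of -1.58 (adjusted p = 0.026). Some histone counts rested largely on 1 cell of a library. Such a cell held 37 of the 72 UMIs of Hist1h1b in ND replicate 1. In ND replicate 3 it was 40 of 45 for Hist1h2ap and 71 of 83 for Hist1h2ae. With 1 library left out, Hist1h1b and Hist1h2ap stayed called each time. The others missed the threshold without some libraries, at adjusted p of up to 0.0929 for Atad2 (without ND replicate 1), 0.221 for Rangap1 and 0.394 for Hist1h2ab (both without MCDHFD replicate 2). DESeq2 did not call Hist1h2ae (0.539), Hist1h2ab (0.256), Hist1h4d (0.125), Atad2 (0.052) or Rangap1 (0.261).

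Of 18 tested cell cycle genes, 3 fell (Mki67, Top2a and Ccnd1), none rose and the median was -1.06. Another 7 had negative values at unadjusted p under 0.05, 10 in all, or 10 of 18 where 6.1% of all genes tested did so. Birc5, survivin, had the lowest value of the list, -2.93 (adjusted p = 0.14). Without ND replicate 1 the count was 1 of 18, without MCDHFD replicate 1 or 2 it was 0 of 23 and 0 of 21, without MCDHFD replicate 3 it was 6 of 20, without ND replicate 2 it was 7 of 20, and without ND replicate 3 it was 8 of 21, with 1 more that rose. With cycling cells left out, 8 members could be tested, 0 were called and the median was 0.0011. Those cells were left out by mitotic genes such as Mki67 and Top2a, so this outcome was largely set by the selection. Ccnd1, cyclin D1, which drives entry into the cycle and was among the genes most specific to the gate, had 263, 292 and 194 CPM in MCDHFD, against 387, 563 and 529 CPM in ND (log2 fold change -1.02, SE 0.21, edgeR adjusted p = 0.016). Its call was lost with 5 of the 6 libraries left out in turn, at adjusted p of up to 0.089, and in the narrower gate (log2 fold change -0.74, adjusted p = 0.27).

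The start regions of 3 of these genes are shown because they fell together and hold TTTGAA, the core of the cell cycle homology region, an element known from promoters of late cell cycle genes. The capitals mark TTTGAA on either strand (TTCAAA is its reverse complement) in the sequences from RefSeq on GRCm38.p6, each on the minus strand and written 5′ to 3′. The regions are chr7:135716330-135716629 for Mki67, chr11:99024140-99024439 for Top2a and chr9:61946750-61947049 for Kif23, and each runs across the annotated start of its gene.
Mki67: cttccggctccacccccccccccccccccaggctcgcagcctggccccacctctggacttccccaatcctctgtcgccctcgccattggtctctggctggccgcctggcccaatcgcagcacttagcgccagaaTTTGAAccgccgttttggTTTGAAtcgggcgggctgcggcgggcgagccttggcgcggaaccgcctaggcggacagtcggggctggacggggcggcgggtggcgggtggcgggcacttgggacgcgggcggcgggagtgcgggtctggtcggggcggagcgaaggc
Top2a: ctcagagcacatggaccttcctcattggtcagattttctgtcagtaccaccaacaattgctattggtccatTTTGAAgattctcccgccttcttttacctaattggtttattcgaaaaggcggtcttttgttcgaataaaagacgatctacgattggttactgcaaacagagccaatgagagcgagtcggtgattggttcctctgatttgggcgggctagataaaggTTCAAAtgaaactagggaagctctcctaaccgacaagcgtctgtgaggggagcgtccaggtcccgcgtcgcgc
Kif23: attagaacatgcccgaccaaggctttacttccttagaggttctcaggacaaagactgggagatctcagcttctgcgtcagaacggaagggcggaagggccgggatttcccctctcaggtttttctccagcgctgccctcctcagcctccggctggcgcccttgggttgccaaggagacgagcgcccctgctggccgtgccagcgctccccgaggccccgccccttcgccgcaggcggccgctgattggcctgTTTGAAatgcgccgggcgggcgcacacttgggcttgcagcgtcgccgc

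TTTGAA was present in 5 of the 16 genes that fell and had a sequence in the table, in 2 of the 28 that rose and had one, and in 17.9% of all 32851 regions of the same length. CCAAT, the other motif searched on both strands, was in 8 of 16 genes that fell, in 14 of 28 that rose and in 37.4% of all regions. The motifs do not overlap in letters. A match describes these letters and is not a measured site, and the 3 genes were picked after their values were seen.

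Genes of the type I interferon list leaned lower, while those of the interferon gamma list were mixed and Ifitm1, given above, rose. Ifi27l2a, an interferon-induced gene, had 789, 464 and 244 CPM in MCDHFD, against 1359, 1182 and 1127 CPM in ND. It was called with any 1 library left out (log2 fold change -1.43, SE 0.23, edgeR adjusted p = 0.0030). All MCDHFD libraries were below all ND libraries. Of 40 tested type I interferon genes, 2 fell, Ifi27l2a among them, and none rose. The median was -0.35, 32 values were negative, and 7 of 40 were lower at unadjusted p under 0.05, where 6.1% of all genes tested were. Among the 7 were Irf7, a regulator of interferon genes (log2 fold change -1.27, adjusted p = 0.089), and Zbp1, a nucleic acid sensor (-1.27, adjusted p = 0.095). Of 9 tested interferon gamma genes, 1 fell and none rose, with 4 positive and 5 negative values and a median of -0.22. Ly6i, a Ly6 family gene, gave 4 UMIs in MCDHFD and 55 in ND cDC2 (log2 fold change -3.66, adjusted p = 0.0026), and is named for its size although it falls outside the naming rule.

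Each list of antigen presentation genes held 1 call. Among 22 tested MHC class I genes, H2-Q7, a non-classical class I gene, fell and none rose, with 143, 96.5 and 124 CPM in MCDHFD, against 296, 181 and 229 CPM in ND (log2 fold change -1.09, edgeR adjusted p = 0.025). H2-Q genes are near-identical and the count is uncertain, and the call was lost without MCDHFD replicates 1 (0.087) or 2 (0.339) or ND replicate 1 (0.136), by DESeq2 (0.1002) and in the narrower gate (log2 fold change -0.66, adjusted p = 0.47). The class I median was -0.33, with 20 of 22 values negative. Psme2, a proteasome activator subunit (-0.74, adjusted p = 0.075), and B2m, the light chain of class I (-0.44, adjusted p = 0.23), did not pass. In the class II list 1 of 18 tested genes rose and none fell, with a median of -0.04. H2-Eb1 (log2 fold change -0.05, SE 0.16), H2-Ab1 (-0.02, SE 0.16) and Cd74, the invariant chain (-0.07, SE 0.18), had values near 0, in cells selected for H2-Aa. The called gene was Lgmn, the endosomal protease legumain, with 130, 180 and 284 CPM in MCDHFD, against 76.2, 72.9 and 62.1 CPM in ND (log2 fold change 1.37, SE 0.25, edgeR adjusted p = 0.0080). Lgmn missed the threshold without MCDHFD replicates 2 (0.082) or 3 (0.095) or ND replicate 2 (0.082), and in the narrower gate (log2 fold change 0.72, adjusted p = 0.56).

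Uptake and positioning receptors gave single calls. Clec10a, a galactose-binding lectin, had 72.9, 54.0 and 204 CPM in MCDHFD, against 29.6, 55.4 and 25.7 CPM in ND, which overlapped (log2 fold change 1.38, SE 0.30, edgeR adjusted p = 0.024). It was the 1 called member of 16 tested C-type lectins and other uptake receptors, of which 14 had positive values, 8 were higher at unadjusted p under 0.05 where 5.78% of all genes were, and the median was 0.53. Fcgr2b, the inhibitory Fc receptor, stood at 1.11 (adjusted p = 0.094) and Cd300a, an inhibitory receptor, at 0.72 (adjusted p = 0.062). The Clec10a call was lost without MCDHFD replicates 1 (0.089) or 3 (0.238) or ND replicates 1 (0.058) or 2 (0.233), and by DESeq2 (0.139). Cxcr4, the receptor for CXCL12, rose among 19 tested positioning genes, with 72.9, 81.0 and 99.5 CPM in MCDHFD, against 27.5, 17.5 and 34.3 CPM in ND (log2 fold change 1.53, SE 0.32, edgeR adjusted p = 0.017). It missed the threshold without MCDHFD replicates 2 (0.101) or 3 (0.107) or ND replicates 1 (0.099) or 2 (0.103), and by DESeq2 (0.123). Ccr2, the receptor for CCL2 (0.94, adjusted p = 0.062), and Cx3cr1, the fractalkine receptor (-1.11, adjusted p = 0.083), did not pass.

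No call fell among 23 dendritic cell transcription factors, 25 listed growth factor and cytokine receptors, 13 costimulation and checkpoint ligands, 13 maturation genes, 7 cytokines, 16 pattern recognition genes, 14 glycolysis genes, 14 survival genes or 5 ESAM-high genes. Of the 25 listed growth factor and cytokine receptors, 22 had positive and 3 negative values, with a median of 0.29. At unadjusted p under 0.05, 5 of 25 were higher, where 5.78% of all genes tested were, and 0 were lower. Receptors of that kind outside the list were called higher, such as Fgfr1, a fibroblast growth factor receptor (log2 fold change 2.63, adjusted p = 0.027), Lifr, the leukemia inhibitory factor receptor (1.81, adjusted p = 0.027), and Igf1r, the insulin-like growth factor 1 receptor (1.76, adjusted p = 0.016). Igf1r overlapped between the diets. These 3 fall outside the naming rule and were picked after their values were seen. Id2, a helix-loop-helix regulator (1.00, adjusted p = 0.13), Irf8 (-0.76, adjusted p = 0.41) and Irf4 (-0.75, adjusted p = 0.51) had the values given, and Dtx1, a Notch pathway gene, -0.82 (adjusted p = 0.12). In 42 oxidative phosphorylation genes none was called, 38 values were negative, the median was -0.36 and 13 of 42 were lower at unadjusted p under 0.05, where 6.1% of all genes tested were. Mthfd2, a mitochondrial enzyme of folate metabolism, had 25.4, 50.2 and 19.9 CPM in MCDHFD, against 108, 108 and 75.0 CPM in ND (log2 fold change -1.46, SE 0.32, edgeR adjusted p = 0.025), the 1 call among 13 genes of methionine, folate and choline metabolism and among 8 of the ATF4 response. It was lost without MCDHFD replicates 1 (0.129) or 3 (0.122) or ND replicates 1 (0.156) or 2 (0.111), by DESeq2 (0.111) and in the narrower gate (0.33). Hsp90ab1, a cytosolic chaperone, fell among 16 stress-protein genes, with 545, 734 and 806 CPM in MCDHFD, against 1308, 1366 and 1127 CPM in ND (log2 fold change -0.93, SE 0.18, edgeR adjusted p = 0.0096), and was lost without MCDHFD replicates 1 (0.122) or 2 (0.051).

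**Figure D3:**
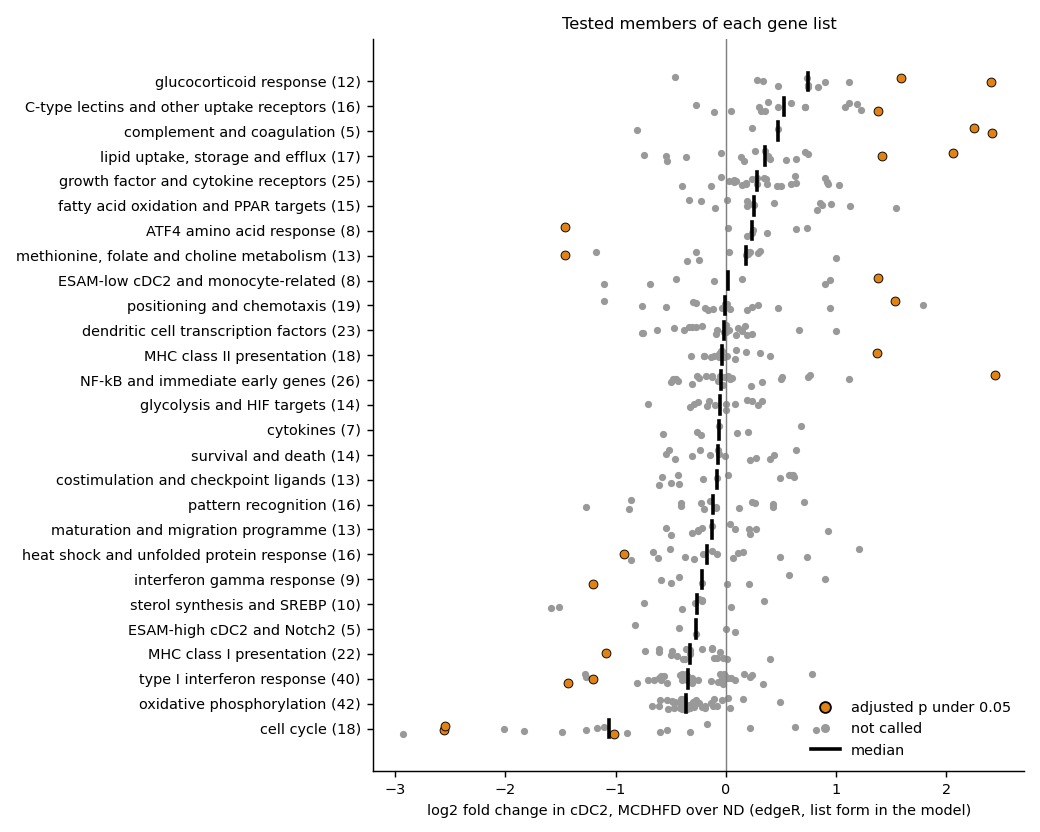
edgeR log2 fold change, MCDHFD over ND, of each tested member (points) of 27 gene lists (rows, with the number tested), orange where the adjusted p is under 0.05, with the list median as a bar. The glucocorticoid list has the highest median, 0.74, and the cell cycle list the lowest, -1.06.

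Of the genes the study is concerned with, Trnp1, a nuclear regulator, had 0 UMIs in 239 cDC2, which allows a share of up to 1.26% of cells with a UMI. Syt6, a synaptotagmin, gave 13 UMIs in 7 MCDHFD cells and 0 in ND. By library there were 1, 11 and 1 UMIs in MCDHFD, and the gene was too low to be tested. Ston1, the endocytic adaptor stonin-1 at mm10 chr17:88597684-88662586, had 31.7, 46.3 and 44.8 CPM in MCDHFD, against 0, 2.92 and 0 CPM in ND. UMIs were in 9, 16 and 6 MCDHFD cells and in 1 ND cell, and the 55 UMIs against 1 give a ratio of 54.5 with an exact 95% counting interval of 9.38 to 2191. That interval pools the libraries of each diet and covers counting error only, not the spread between libraries or cells. The test gave an adjusted p of 0.0022 in edgeR and 0.0097 in DESeq2, and 0.056 in edgeR without MCDHFD replicate 2. Gated B cells had 11.4, 18.5 and 18.8 CPM of Ston1 in MCDHFD, against 0.896, 0.585 and 0.751 CPM in ND, which did not overlap. A UMI of Ston1 was found in 28.1%, 21.9% and 25% of MCDHFD cDC2 and in 6.21%, 9.59% and 7.32% of MCDHFD B cells, at median depths of 7072 to 10373 and 3579 to 5978 UMIs. cDC1 and classical monocytes had 1 UMI of it each and pDC 0. The part of free RNA in the cDC2 level was not tested.

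Whether the diet difference of cDC2 departed from that of other gated cells was tested as an interaction with library as a block. Against cDC1, 0 of 5316 genes (0%) passed in edgeR, with 236 at unadjusted p under 0.05, and DESeq2 gave 0 with 58. On simulated data this comparison recovered 4.95% of genes changed by a log2 of 1 and 64.8% of those changed by 2. That simulation gave cDC1 the spread between libraries estimated in cDC2 and no shift by list form, so real recovery may be lower. cDC1 sums held under 20 cells in 5 of the 6 libraries. Plin2 had an interaction of 2.52 on the log2 scale (SE 0.61, adjusted p = 0.748), with 76.1, 65.6 and 54.7 CPM in MCDHFD and 10.6, 8.75 and 23.6 CPM in ND cDC2, beside 96.0, 77.6 and 75.1 CPM in MCDHFD and 143, 136 and 53.9 CPM in ND cDC1. cDC1 had 48.0, 106 and 75.1 CPM of Fkbp5 in MCDHFD, against 23.9, 28.0 and 18.0 CPM in ND. Both classes come from the same libraries. B cells had 112, 249 and 62.9 CPM of Fkbp5 in MCDHFD, against 31.7, 16.4 and 38.1 CPM in ND, so its diets did not overlap there either.

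Against classical monocytes, 6 of 7138 genes (0.0841%) had a different diet effect in cDC2 (edgeR, adjusted p under 0.05). Of these, 4 are class II genes, and H2-Aa is part of the cDC2 gate, so the values of the 4 are a description and support nothing. H2-Eb1, H2-Aa, H2-Ab1 and Cd74 were 4 of them, with log2 fold changes of -0.05, 0.02, -0.02 and -0.07 in cDC2 and of -4.08, -3.62, -3.62 and -2.86 in monocytes. H2-Eb1 had 4659, 4567 and 9757 CPM in MCDHFD and 4850, 7928 and 5286 CPM in ND cDC2, while monocytes had 16.1, 23.5 and 0 CPM in MCDHFD and 190, 108 and 410 CPM in ND. Its interaction was 3.81 on the log2 scale (SE 0.36, adjusted p = 0.00023). cDC2 were selected for at least 3 UMIs of H2-Aa, and the cells that missed only this condition, 16, 44 and 3 in MCDHFD against 6, 3 and 5 in ND, are not in these sums. S100a11, a calcium-binding protein, differed the other way, with 887, 815 and 716 CPM in MCDHFD and 1367, 1762 and 1356 CPM in ND cDC2, beside 887, 1342 and 1152 CPM in MCDHFD and 601, 980 and 604 CPM in ND monocytes (interaction -1.62, SE 0.22, adjusted p = 0.0050). Gria3, a glutamate receptor subunit, was the sixth.

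**Figure D4:**
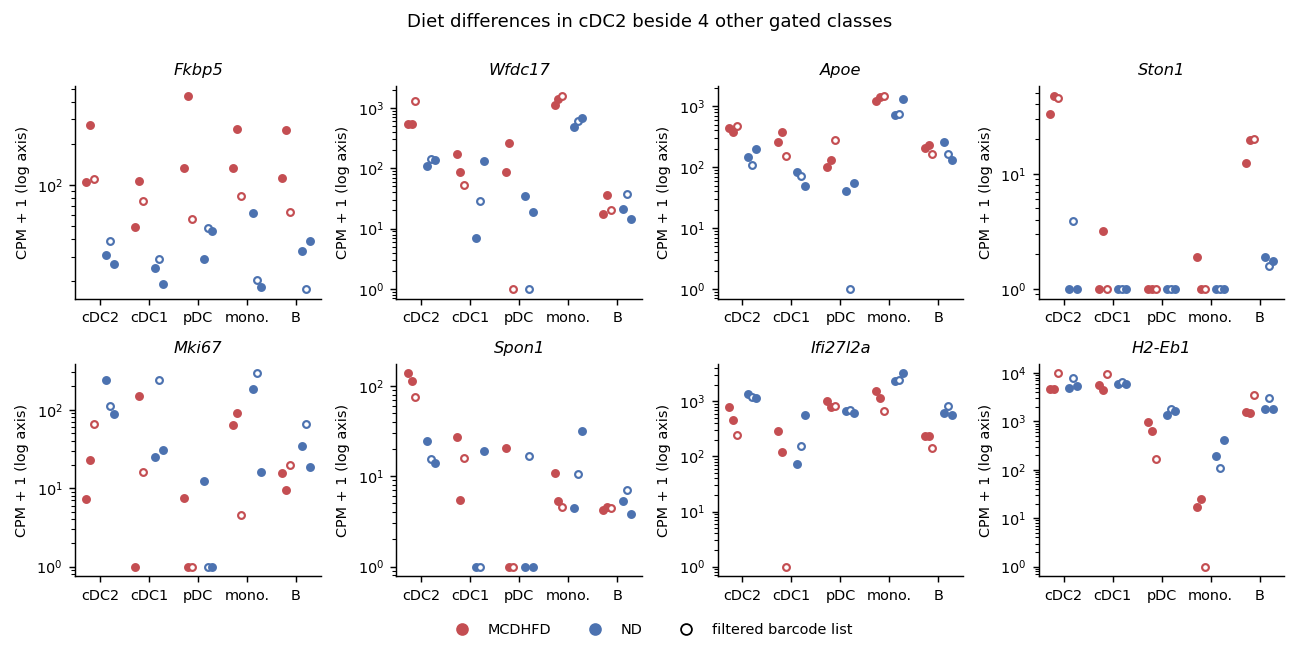
CPM + 1 (log axis) of 8 genes in summed cDC2, cDC1, plasmacytoid dendritic cells (pDC), classical monocytes and B cells, MCDHFD left of ND, 1 point per library and open for filtered lists. Fkbp5 is higher in MCDHFD without overlap in all 5 classes, Ston1 reaches its highest levels in MCDHFD cDC2, and H2-Eb1 is level in cDC2 and lower in MCDHFD monocytes. The pDC sums are small, with 2 cells in MCDHFD replicate 3 and at most 17 in any library.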

How the data were processed

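The deposited values are raw UMI counts per gene and barcode (32285 genes), per the file headers. Per the submitters' processing notes, the build was mm10 and the tools were Cell Ranger 9.1.0 and Seurat 4.3.0, while the file headers name version 9.0.1 for 4 libraries and 7.2.0 for MCDHFD replicate 3 and ND replicate 2. Total UMIs were 61446640, 62238012 and 21259837 in MCDHFD and 56714190, 21956506 and 45223393 in ND (replicates 1 to 3).

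A minimum of 1000 UMIs and 400 genes and a mitochondrial limit of 10% were set for barcodes, which gave 6606, 6566 and 3527 cells in MCDHFD and 6533, 3273 and 4952 in ND. Scrublet (scanpy 1.11.5) predicted 241, 200 and 0 doublets in MCDHFD and 75, 0 and 56 in ND, 1 of them a cDC2. They were left out only as an alternative, and a count of 0 may mean that Scrublet gave no usable call there. UMIs were summed per library and class.

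Genes passing filterByExpr were tested with edgeR 4.0.16 (R 4.3.3, TMM, quasi-likelihood, list form plus diet), with Benjamini-Hochberg adjustment over all genes tested. On simulated data the diet test recovered 40% of genes changed by a log2 of 1 and 91.5% of those changed by 2. The simulation gave all genes 1 common spread between libraries (dispersion 0.028) and no shift by list form. Recovery in the real libraries may therefore be lower. Alternatives used DESeq2 1.42.0, other scaling, filters and cell limits, and each library left out.

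Named genes were up to 12 per direction with the largest fold change among called genes with mean log2 CPM of at least 5, no overlap between diets and 1 sign in both list forms, without gate genes, immunoglobulin, T cell receptor and haemoglobin genes and unnamed models (34 and 23 qualified), up to 4 members of each list by p, and Trnp1, Syt6 and Ston1. Members, lists and tests were chosen with earlier results of these data known. Positions are from GENCODE M21. Some results are not reported here.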

Additional observations from a re-analysis of the deposited data

Results flagged for a closer look

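The diet effect differed between cDC2 and classical monocytes for 6 genes in the test of the difference itself. The difference, cDC2 minus monocytes on the log2 scale, was 3.81 for H2-Eb1, 2.70 for Cd74, 3.52 for H2-Aa and 3.35 for H2-Ab1, 4 class II genes. In monocytes their log2 fold changes were -4.08, -2.86, -3.62 and -3.62. H2-Aa belongs to the cDC2 gate, so the values of these 4 genes are a description. Gria3 had a difference of 4.60, with 78 UMIs in MCDHFD and 15 in ND cDC2, beside 67 in MCDHFD and 246 in ND monocytes. S100a11 had a difference of -1.62. With unfiltered lists alone 16 genes differed in place of 6.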

How the results depend on the processing

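The count of 70 diet genes in cDC2 was 0 with diet alone, 0 with a replicate block in place of list form, 108 with a replicate block together with list form, 33 with DESeq2, 254 with no low-count filter and 43 in unfiltered lists alone. It was 29 with at most 1 other-lineage UMI per cell, which left 7 cells in ND replicate 1, and 29 without cycling cells, a setting added after seeing the data. Leaving out 1 library gave 30 (ND replicate 1) to 125 (ND replicate 3), with 34 without MCDHFD replicate 1 and 37 without MCDHFD replicate 2. The model with a replicate block together with list form fits almost as many coefficients as there are libraries, so its 108 calls carry little weight. Every called gene that could be tested kept its sign in all of these alternatives. Of 36 named and called genes, 10 stayed called with each library left out.

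The share of cDC2 differed by -0.04 percentage points, and reversed to 0.073 in that narrower gate, 0.12 in unfiltered lists alone and 0.013 after thinning. Leaving out 1 library gave -0.22 to 0.10. cDC2 per cDC1 reversed to 0.23 on the log2 scale in that narrower gate. The labels give same-numbered libraries only a shared number. Their deviations from the diet means correlated at 0.0996, -0.435 and -0.490. In replicates 2 and 3 the libraries differ in list form, which was left in, so these values cannot show whether libraries are paired. With a replicate block the permutation p of cDC2 per cDC1 was 0.25, the smallest it can give.

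Against cDC1, the count of 0 became 35 with no low-count filter and 7 in unfiltered lists alone, and 0 to 7 with 1 library left out. Against monocytes, the count of 6 became 1 without class by list form, 88 with no low-count filter and 16 in unfiltered lists alone, and 5 to 20 with 1 library left out. Small cell numbers limit each of these values.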
